A study of Bos taurus with 6 samples.

Results

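Histone modifiers and chromatin remodellers are the enzymes and subunits that write, erase and read chemical marks on histones and DNA or that move nucleosomes. They were followed here in bovine cumulus cells over the first 6 h of in vitro maturation. Members were chosen by gene symbol on the array's platform annotation. A symbol counted if it began with HDAC, KDM, KMT, KAT, SETD, SIRT, DNMT, PRMT, CHD or BRD and a digit, or with SMARC, or if it was a TET, EZH or EHMT gene or HAT1. The rule used no measured value and found 83 of 15216 named genes, carried by 130 of 43794 probes. No symbol on the platform began with KMT and a digit, and TET1 was not among the genes found. By role there were 28 writers, 28 erasers, 5 readers and 22 remodellers.

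RNA was compared on 2-colour arrays between cumulus cells of Holstein cows taken before maturation (0 h, the reference) and cumulus cells of complexes matured in vitro for 6 h. There were 3 biological replicates, each hybridised on 2 arrays with the dyes exchanged. Per the labels' protocols, cumulus-oocyte complexes with at least 5 cumulus layers came from slaughterhouse ovaries, and up to 10 of them shared a culture group at 38.5 °C under 5% CO2 and 20% O2. They were cultured in TCM-199 that held serum (10%), estradiol (1 µg/ml), pyruvate and gentamicin; a gonadotropin is not among the named components. The 0 h cells did not go through culture, so time and culture cannot be told apart. The sources used here do not say how many cows or complexes went into a replicate. A p-value here reflects no more than spread among 3 replicates, which may be partly technical. The test, from limma, draws each gene's spread toward that of all tested genes, while a printed SD is the gene's own.

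Cumulus cells are the somatic cells around the oocyte, and at maturation they expand and change their gene expression. In chromatin biology, known mostly from human and mouse work, acetyl groups placed on histone tails by acetyltransferases go with open chromatin, and histone deacetylases and sirtuins remove them. Methyl groups on lysines mark active genes at some positions, such as H3K4 and H3K36, and silent ones at others, such as H3K9 and H3K27, and each position has its own methyltransferases and demethylases. Bromodomain proteins bind acetylated lysines. Remodellers of the SMARC and CHD families use ATP to slide, evict or exchange nucleosomes.

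The tissue label was checked against marker genes. Of 17 cumulus and granulosa markers, 16 were above background, with a summed level of 188810 to 194300 intensity units at 0 h and 154130 to 163120 at 6 h. This sum is approximate, because INHA, INHBA and SERPINE2, each at a log2 level of 15.2 at 0 h, had saturated spots on 2, 4 and 2 arrays. Of the 16 tested, 2 were called higher and 6 lower by limma, with a median log2 ratio of -0.23. FSHR and CYP19A1 were among those lower at 6 h (log2 ratios -1.53 and -1.49). HAS2 and PTX3, genes of the expanding matrix, were higher (3.36 and 2.16). TNFAIP6, also on this list, gave -1.30, 0.49 and 1.38 in replicates 1, 2 and 3 and was not called. Of 13 theca and stroma markers, 8 were tested, of which 4 were called higher and 1 lower, with a median log2 ratio of 0.86. PDGFRA was at 1.93, LUM at 1.23, TCF21 at 1.07 and MYH11 at -2.16, and the fourth gene called higher, DCN, was above background on 2 of 6 arrays at 0 h. The summed level of this list was 16781 to 27156 at 0 h and 25381 to 33124 at 6 h. The leukocyte list had 3 of 12 genes and the endothelial list 1 of 8 above background. CD68 was called higher at 1.34, PTPRC was at -0.031 without a call, and CD79A, CSF1R and ITGB2 were not above background on any array. The part of these other cell types in the member values was not tested. Of 21 oocyte markers, 12 were tested and 0 passed limma's test (0 also had an unadjusted p under 0.05), and their summed level ranged from 2726 to 22451 at 0 h and from 4554 to 9522 at 6 h. The median log2 ratio of these oocyte markers was 2.04, 1.19 and -1.20 in replicates 1, 2 and 3. In bulk RNA, fewer cells of a type and less RNA per cell cannot be told apart.

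Each gene is described by the log2 ratio of 6 h over 0 h, and a gene was called where limma's moderated test gave a Benjamini-Hochberg adjusted p under 0.05 over 9217 tested genes. Of the 83 members, 69 had a probe bright enough to be tested and 14 did not. Among the 69, 13 were called higher and 11 lower at 6 h. Over all tested genes, 17.4% were called higher and 18.2% lower, 35.6% in all, and among the tested members the shares were 18.8%, 15.9% and 34.8%. The share of members called was therefore near that of all genes. Called changes of at least 2-fold were seen for 4 members, SMARCA4, SETD8, CHD4 and SIRT3, while 11.6% of all tested genes were called and changed that far. The levels of the 3 replicates did not overlap between the times for 28 members, or 40.6%, against 42.8% of all tested genes.

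The called members divided by role without a common direction. Writers had 5 higher and 2 lower of 22 tested, erasers 2 higher and 5 lower of 25, readers 1 higher and 1 lower of 4, and remodellers 5 higher and 3 lower of 18. The median log2 ratio was 0.23 for writers, -0.010 for erasers, -0.13 for readers and 0.18 for remodellers, beside -0.018 for all tested genes. In replicates 1, 2 and 3 the writers' median was 0.31, 0.11 and 0.18, and the erasers' was 0.088, -0.083 and -0.15. The difference between roles was not tested. The 24 calls depended on the replicates in unequal measure. Without replicate 2, 5 members were called higher and 2 lower, without replicate 3 the counts were 7 and 6, and without replicate 1 they were 15 and 10. The 7 members called whichever replicate was left out were SMARCA4, CHD4, CHD2, SETD8, KDM5C, SIRT3 and KDM4C. The remaining 17 lost their call without replicate 2, and 11 of them without replicate 3 as well. HAT1 also lost it without replicate 1.

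**Figure D1:**
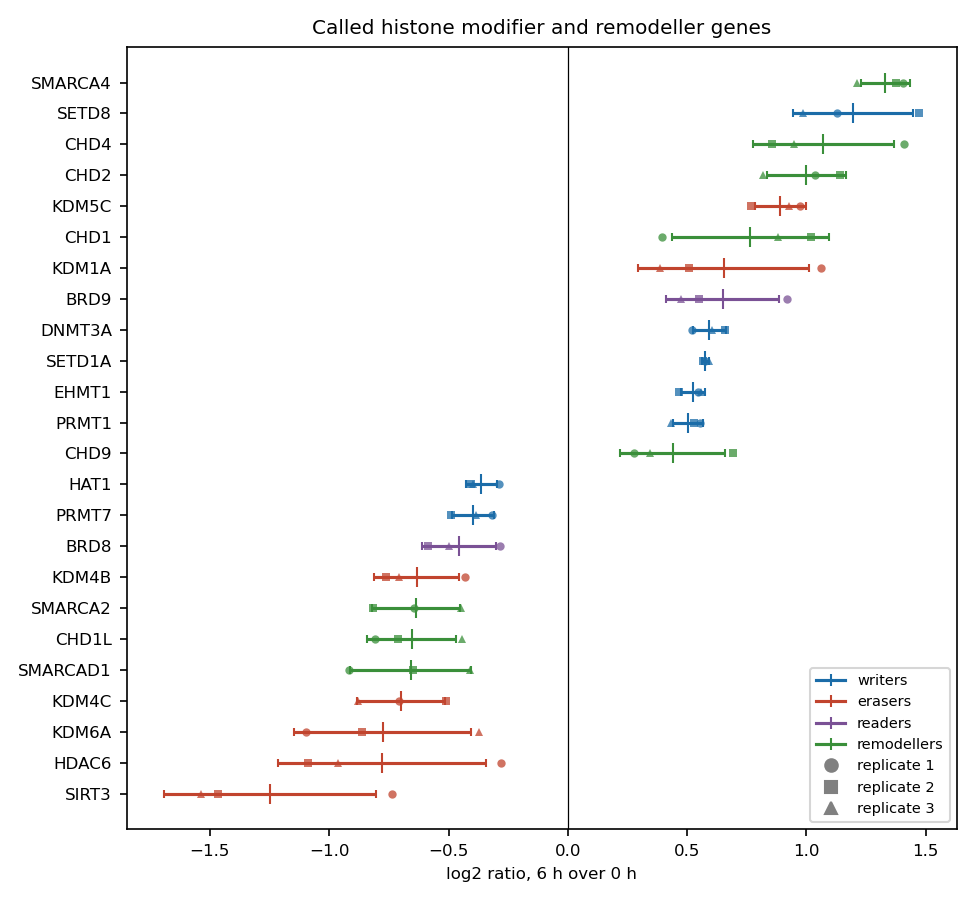
The log2 ratio of 6 h over 0 h (horizontal axis) for the 24 called members (vertical axis), with points for replicates 1 to 3 and a bar for the mean. SMARCA4 is farthest to the right at 1.33 and SIRT3 farthest to the left at -1.25, and no replicate of a called member lies on the other side of 0.

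Among the writers, SETD8, listed today as KMT5A, changed most. It is the methyltransferase that places a single methyl group on H4K20. Its level was 7.96, 7.82 and 7.76 at 0 h in replicates 1, 2 and 3 and 9.09, 9.29 and 8.75 at 6 h, on the log2 intensity scale. Every 6 h level lay above every 0 h level. SETD8 had a log2 ratio of 1.20 ± 0.25 (SD, n = 3), a 2.29-fold rise with an adjusted p of 0.0032 by limma.

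SETD1A, a catalytic subunit of a complex that methylates H3K4, had the closest replicates of all called members once dye swaps were averaged. Its levels were 10.84, 10.48 and 10.72 at 0 h and 11.41, 11.04 and 11.31 at 6 h. The log2 ratio was 0.58 ± 0.014 (SD, n = 3, limma adjusted p = 0.011), and the groups did not overlap. By dye, the ratios were 0.65, 0.83 and 0.74 with 6 h RNA in Cy3 and 0.50, 0.30 and 0.44 with it in Cy5. SETD1A lost its call on the Cy5 arrays alone and without replicate 2 or replicate 3. EHMT1, one of the paired H3K9 methyltransferases, went from 8.82, 8.84 and 8.68 to 9.36, 9.31 and 9.24 and rose by a log2 ratio of 0.52 ± 0.050 (limma adjusted p = 0.015, n = 3). Its partner EHMT2 was listed at -0.23 ± 0.056 (limma adjusted p = 0.15, n = 3), with ratios of -0.18, -0.22 and -0.29. EHMT2 was below 0 on all 6 arrays, while its levels overlapped between the times, and it is named after its values were seen.

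DNMT3A, which methylates DNA at sites that carry no methyl group yet, rose. Its levels were 11.00, 10.79 and 10.81 at 0 h and 11.52, 11.45 and 11.41 at 6 h, with no overlap. DNMT3A had a log2 ratio of 0.59 ± 0.069 (SD, n = 3, limma adjusted p = 0.011), and a second, dimmer DNMT3A probe gave 0.28 without a call. DNMT3B, the related enzyme, gave 0.029, 0.28 and 0.21 in replicates 1, 2 and 3 and was not called. By dye, DNMT3B gave 0.30, 0.75 and 0.52 with 6 h RNA in Cy3 and -0.24, -0.19 and -0.093 with it in Cy5. DNMT3B was called on the Cy3 arrays alone. DNMT1, which copies DNA methylation after replication, gave 0.90, -0.15 and 0.039, so that replicate 1 alone was far from 0 (mean 0.26, 95% interval -0.30 to 0.82). DNMT3B and DNMT1 are named after their values were seen.

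Of the 6 tested arginine methyltransferases, 1 rose and 1 fell. PRMT1, which makes most asymmetric dimethylarginine, had ratios of 0.55, 0.53 and 0.43 and a mean of 0.50 ± 0.063 (SD, n = 3, limma adjusted p = 0.017). Its other tested probe gave 0.14 and was not called, and PRMT1 lost its call with the mean of both probes (0.32, limma adjusted p = 0.056, n = 3) and without replicate 2 or replicate 3. PRMT7, which adds single methyl groups to arginine, had ratios of -0.32, -0.49 and -0.39 and fell by 0.40 on the log2 scale (SD 0.088, n = 3, limma adjusted p = 0.038). PRMT3 and PRMT5, which makes symmetric dimethylarginine, were listed at 0.34 and 0.32 and were not called (limma adjusted p = 0.072 and 0.12). Both were above 0 in every replicate.

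HAT1, which acetylates newly made histone H4, was the writer with the least secure call. Its levels were 11.41, 11.16 and 11.05 at 0 h and 11.12, 10.76 and 10.65 at 6 h, which overlap. The replicate ratios were -0.29, -0.41 and -0.40, with a mean of -0.36 (SD 0.066, limma adjusted p = 0.047, n = 3), and was below 0 on 5 of 6 arrays. Beside it, 12 of 16 S phase genes on a fixed list were called lower and the other 4 were not called, with a median log2 ratio of -0.93. Their part in the values of HAT1 and other members was not tested. The other tested acetyltransferase, KAT5, gave 0.60, -0.081 and 0.24 and was not called, and it is named after its values were seen.

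Neither of the Polycomb H3K27 methyltransferases passed limma's test, and 0 of these 2 had an unadjusted p under 0.05. EZH2 had levels of 11.00, 11.26 and 11.04 at 0 h and 11.59, 11.08 and 10.99 at 6 h, which overlap, and a mean ratio of 0.12 with a 95% interval of -0.32 to 0.56. EZH1 gave 0.12, 0.12 and -0.12. The interval of EZH2 leaves room for a change of moderate size in either direction. SETD2, which trimethylates H3K36, gave 0.90, 0.37 and 0.15 (mean 0.47, limma adjusted p = 0.085, n = 3) and did not overlap between the times, and its second probe gave 0.41. SETD3, a methyltransferase of actin, and SETD4 lay near 0 at -0.072 and 0.053. SETD6, known to methylate the RELA subunit of NF-kB, was listed at 0.25 ± 0.048 and was not called (limma adjusted p = 0.13, n = 3).

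**Figure D2:**
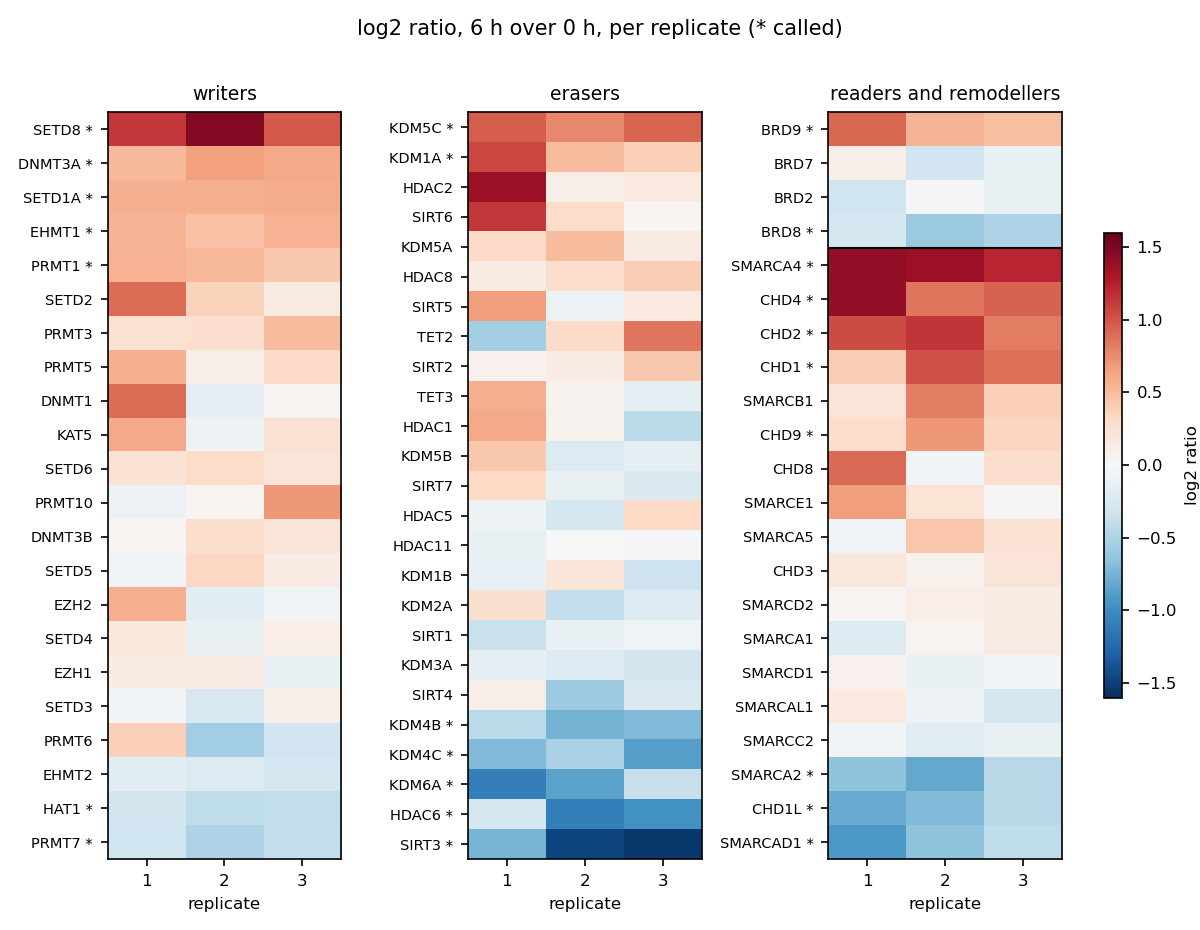
The log2 ratio of 6 h over 0 h (colour, red above 0 and blue below) in replicates 1 to 3 (columns) for every tested member (rows). Writers and erasers have a panel each, readers and remodellers share one and are split by a line, and called members are starred. HDAC2, SIRT6 and DNMT1 are strongly coloured in replicate 1 and pale in at least 1 other replicate, while SETD1A and KDM5C have nearly the same colour in all 3.

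Among the erasers, the lysine demethylases moved in both directions, with 2 higher and 3 lower of 10 tested. KDM5C, which removes methyl groups from H3K4, had levels of 9.13, 9.07 and 8.97 at 0 h and 10.10, 9.84 and 9.90 at 6 h. All 6 h levels lay above all 0 h levels, with a log2 ratio of 0.89 ± 0.11 (SD, n = 3, limma adjusted p = 0.0039), a rise of 1.85-fold. KDM1A, also called LSD1, which acts on the same lysine with a different chemistry, gave 1.06, 0.51 and 0.39 and was called at 0.65 (SD 0.36, limma adjusted p = 0.030, n = 3). Its levels of 10.00, 10.74 and 10.28 at 0 h and 11.06, 11.25 and 10.67 at 6 h overlapped, since replicate 2 was already high at 0 h. KDM1A lost its call without replicate 2.

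The paralogs of KDM5C did not pass the test. KDM5A gave 0.31, 0.51 and 0.15 (mean 0.32, limma adjusted p = 0.093, n = 3) and KDM5B gave 0.43, -0.21 and -0.15. Of the 5 tested erasers of H3K4 methylation, 2 were called higher and 0 lower, with a median log2 ratio of 0.32. The share called was 40%, near the 35.6% of all tested genes. KDM1B, also in this group, gave -0.13, 0.19 and -0.33 and was not called, and it is named after its values were seen.

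The 3 demethylases called lower act on H3K9 or H3K27. On the list of 6 tested demethylases outside the rule, 2 were called higher and 0 lower. These were JMJD1C at 1.33 and PHF2, which acts on H3K9, at 0.43. KDM4A, a KDM4 gene that the platform lists under an older symbol, gave 0.51, 0.27 and 0.10 and was not called. KDM6A, also called UTX, which removes H3K27 methylation, had levels of 9.82, 9.62 and 9.10 at 0 h and 8.72, 8.75 and 8.73 at 6 h. The 0 h replicates were spread and the 6 h replicates were close together, without overlap. KDM6A had a log2 ratio of -0.78 ± 0.37 (SD, n = 3, limma adjusted p = 0.019). KDM4C, a demethylase of H3K9, went from 9.81, 9.59 and 9.71 to 9.10, 9.08 and 8.83 and had a ratio of -0.70 ± 0.18 (SD, n = 3, limma adjusted p = 0.010). KDM4B, of the same family, had ratios of -0.43, -0.76 and -0.71 and a mean of -0.63 (SD 0.18, limma adjusted p = 0.013, n = 3). A second KDM4B probe gave 0.041, and with the mean of both probes KDM4B was not called. KDM3A, a further H3K9 demethylase, was lower in every replicate and on all 6 arrays (-0.14, -0.20 and -0.29) but was not called (limma adjusted p = 0.18, n = 3).

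Of the 6 tested histone deacetylases, 1 was called. HDAC6, a mainly cytoplasmic enzyme that deacetylates tubulin and HSP90, had levels of 9.75, 10.05 and 10.00 at 0 h and 9.47, 8.96 and 9.03 at 6 h. The groups did not overlap, and replicate 1 showed the smallest difference. The log2 ratio was -0.78 ± 0.44 (SD, n = 3, limma adjusted p = 0.025), and the call was lost without replicate 2 or without replicate 3.

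The class I deacetylases, which are nuclear and form part of corepressor complexes, had 0 of 3 tested members called by limma, and 0 with an unadjusted p under 0.05. HDAC8 gave 0.13, 0.28 and 0.39 (limma adjusted p = 0.13, n = 3). HDAC2 and HDAC1 are named after their values were seen, and for HDAC2 replicate 1 stood apart. HDAC2 had levels of 9.19, 10.44 and 9.90 at 0 h and 10.58, 10.54 and 10.05 at 6 h, and its ratio was 1.39 in replicate 1 and 0.10 and 0.15 in the others. HDAC1 gave 0.61, 0.053 and -0.43. HDAC5 and HDAC11 lay near 0 at -0.019 and -0.043.

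The sirtuins, deacylases that depend on NAD, had 1 of 7 tested members called. SIRT3, the main deacetylase of the mitochondrial matrix, had levels of 9.43, 9.81 and 10.02 at 0 h and 8.69, 8.35 and 8.48 at 6 h. The groups were clearly apart, with a log2 ratio of -1.25 ± 0.44 (SD, n = 3), a 2.38-fold fall with an adjusted p of 0.0066 by limma. The other mitochondrial sirtuins, SIRT4 and SIRT5, were not called, with ratios of 0.088, -0.58 and -0.23 for SIRT4 and 0.67, -0.083 and 0.16 for SIRT5. SIRT6, a nuclear enzyme of histone H3, gave 1.13, 0.30 and 0.032 (limma adjusted p = 0.16, n = 3), and SIRT7 lay near 0 at -0.010. SIRT4 and SIRT5 are named after their values were seen.

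The tested TET enzymes, which oxidise methylcytosine, were not called and their replicates disagreed in sign. TET2 gave -0.54, 0.31 and 0.85 on its brightest probe, and its other tested probes gave -0.38 and 0.063. TET3 had levels of 12.13, 10.32 and 10.48 at 0 h and 12.71, 10.37 and 10.32 at 6 h, so that replicate 1 was the highest at both times. Both TET genes are named after their values were seen.

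Replicate 1 had the highest of the 3 ratios for 37 of the 69 tested members, or 53.6%, against 39.3% of all tested genes. The oocyte markers also had their highest median in replicate 1, and 10 of the 12 tested were above 0 in replicates 1 and 2 and below 0 in replicate 3. Their part in the member values was not tested.

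**Figure D3:**
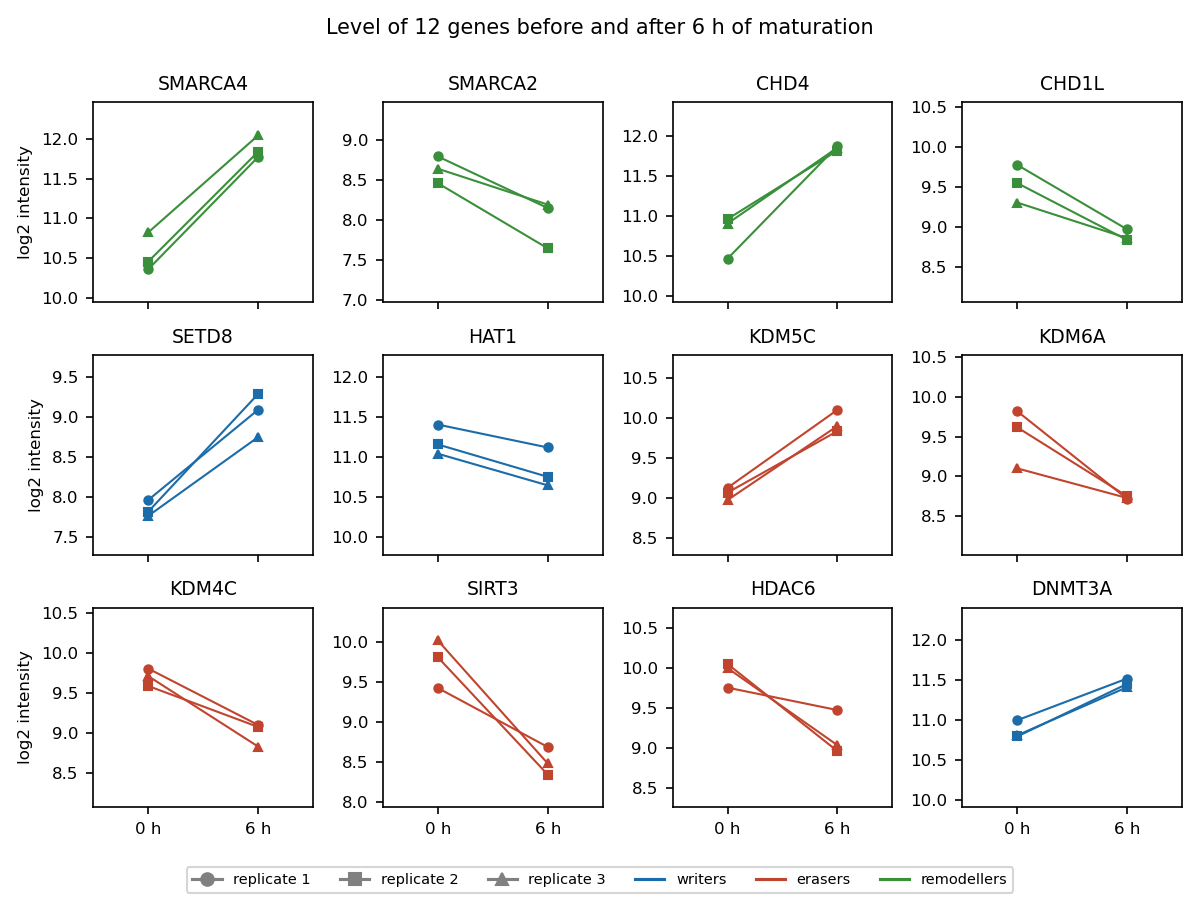
The level (vertical axis, log2 intensity after normalization) before and after 6 h of maturation for 12 members, with a line and marker shape for each of the 3 replicates and the role as colour. Each panel spans the same 2.5 log2 units but starts at its own level. The lines of SMARCA4 and KDM5C run upward nearly in parallel, those of KDM6A start apart and meet at 8.72 to 8.75, and the line of replicate 1 is the flattest for SIRT3 and HDAC6.

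Of the 4 tested bromodomain genes, BRD9 rose and BRD8 fell. BRD9, a subunit of the non-canonical BAF remodelling complex, had levels of 12.51, 12.95 and 13.20 at 0 h and 13.43, 13.50 and 13.67 at 6 h. The groups did not overlap, with a log2 ratio of 0.65 ± 0.24 (SD, n = 3, limma adjusted p = 0.016). BRD8, a subunit of the acetyltransferase complex built around KAT5, gave -0.29, -0.59 and -0.50, with a mean of -0.46 (SD 0.15, limma adjusted p = 0.032, n = 3). Its levels overlapped between the times, at 11.62, 11.00 and 11.38 at 0 h and 11.33, 10.41 and 10.88 at 6 h. BRD2, a member of the BET family, and BRD7 were listed at -0.15 and -0.11 and were not called. BRD8 lost its call without replicate 2 or replicate 3, and BRD9 without replicate 2.

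The remodellers held the largest ratio among the members. SMARCA4, or BRG1, the ATPase of BAF complexes, had levels of 10.36, 10.46 and 10.82 at 0 h and 11.77, 11.84 and 12.04 at 6 h. Every 6 h level was above every 0 h level, and the replicate ratios of 1.40, 1.37 and 1.21 lay close together. The log2 ratio was 1.33 ± 0.10 (SD, n = 3), a 2.52-fold rise with an adjusted p of 0.0017 by limma. SMARCA2, or BRM, the alternative ATPase of the same complexes, moved the other way. Its levels were 8.80, 8.46 and 8.64 at 0 h and 8.15, 7.65 and 8.19 at 6 h, without overlap. This gave a log2 ratio of -0.64 ± 0.18 (SD, n = 3, limma adjusted p = 0.013). A second SMARCA2 probe was also below 0, at -0.16, without a call, and SMARCA2 lost its call without replicate 2. Levels of different probes are not comparable on these arrays, so no ratio of SMARCA4 to SMARCA2 is given.

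The other tested BAF subunits with SMARC symbols did not pass the test. SMARCB1, a core subunit, gave 0.21, 0.82 and 0.38 (mean 0.47, limma adjusted p = 0.063, n = 3), and was above 0 on 4 of 6 arrays. Its mean was 1.00 on the arrays with 6 h RNA in Cy3 and -0.064 on those with it in Cy5, and its second probe gave 0.014. SMARCB1 was called on the Cy3 arrays alone and without replicate 1. SMARCE1 gave 0.66, 0.22 and 0.020. A second SMARCE1 probe of nearly the same mean intensity gave 0.24, 0.35 and 0.39, and a dimmer one had a mean of 0.096, both without a call. SMARCC2 is named after its values were seen. SMARCC2, SMARCD1 and SMARCD2, which are scaffold and accessory subunits, lay between -0.11 and 0.089 on probes at a level under 8. Of the 7 tested SMARC members counted as BAF subunits, 1 was called higher and 1 lower.

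The ISWI ATPases SMARCA5 and SMARCA1, which space nucleosomes, were listed at 0.21 and -0.0082 and were not called. SMARCAD1, a remodeller that acts in heterochromatin upkeep and DNA end resection, fell. It had levels of 11.21, 10.97 and 10.76 at 0 h and 10.29, 10.32 and 10.34 at 6 h, with a log2 ratio of -0.66 ± 0.25 (SD, n = 3, limma adjusted p = 0.017). The 6 h levels were closer together than the 0 h levels and did not overlap them. SMARCAL1, which anneals DNA strands at stalled replication forks, was near 0 at -0.074.

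The CHD family had 4 higher and 1 lower of 7 tested, or 71.4% called beside 35.6% of all tested genes. Among families with more than 5 tested members this was the highest share, and the difference was not tested. Of its called genes, only CHD2 and CHD4 kept their call in all 18 alternatives of processing. CHD4, the ATPase of the NuRD complex, had levels of 10.47, 10.96 and 10.91 at 0 h and 11.88, 11.82 and 11.86 at 6 h. The 6 h levels were nearly equal, with a log2 ratio of 1.07 ± 0.30 (SD, n = 3, limma adjusted p = 0.0051). CHD3, the alternative ATPase of that complex, gave 0.18, 0.050 and 0.20 and was not called (95% interval -0.13 to 0.41), and it is named after its values were seen.

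CHD2 and CHD1, related remodellers of transcribed chromatin, both rose. CHD2 had levels of 8.32, 8.19 and 8.53 at 0 h and 9.36, 9.33 and 9.34 at 6 h, and its log2 ratio was 1.00 ± 0.17 (SD, n = 3, limma adjusted p = 0.0035). CHD1, which binds methylated H3K4, had levels of 8.11, 7.77 and 7.57 at 0 h and 8.51, 8.79 and 8.45 at 6 h. Replicate 1 showed the smallest difference of CHD1, with ratios of 0.39, 1.02 and 0.88 and a mean of 0.77 (SD 0.33, limma adjusted p = 0.016, n = 3). Its other tested probe gave 0.95 and was called too, the only member gene with more than 1 called probe.

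CHD9 was called higher at 0.44 (ratios 0.28, 0.69 and 0.35, SD 0.22, limma adjusted p = 0.048, n = 3), with overlapping levels and a ratio above 0 on 4 of 6 arrays. Its ratios were -0.047, 0.20 and -0.028 on the arrays with 6 h RNA in Cy3 and 0.61, 1.18 and 0.72 with it in Cy5. A second tested CHD9 probe gave 0.14 without a call. CHD9 lost the call in 11 of 18 alternatives of processing. These included the fits without replicate 2 or 3, the Cy3 arrays alone and the mean of the tested probes. The normalized ratios deposited by the authors were also among them. CHD1L, which is recruited to DNA breaks by poly(ADP-ribose), fell. Its levels were 9.77, 9.55 and 9.30 at 0 h and 8.97, 8.83 and 8.86 at 6 h, with a log2 ratio of -0.65 ± 0.19 (SD, n = 3, limma adjusted p = 0.012). CHD8, a regulator of beta-catenin targets, gave 0.91, -0.054 and 0.26 and was not called.

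**Figure D4:**
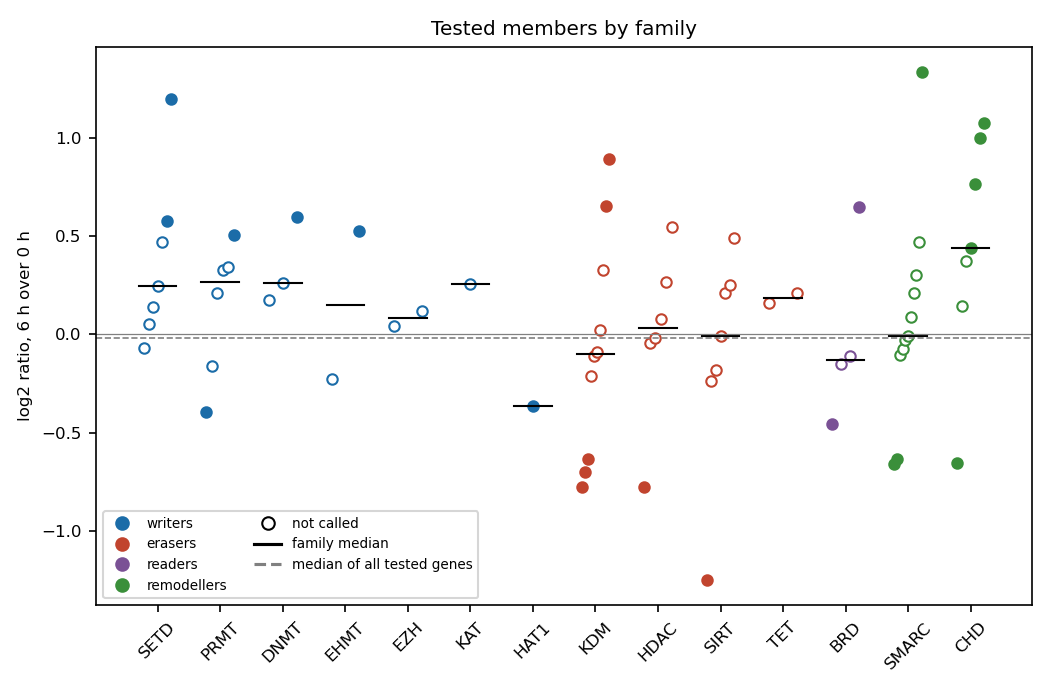
The mean log2 ratio of 6 h over 0 h (vertical axis) of each tested member, by gene family (horizontal axis), filled where called, with the family median as a black line and the median of all tested genes, -0.018, as a dashed line. The CHD family has its median at 0.44, the SMARC family at -0.0082 with SMARCA4 well above the rest, and the sirtuins at -0.010 with SIRT3 well below the rest.

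The 45 members that were tested and not called lay 28 above and 17 below 0. A p that misses the threshold with 3 replicates does not show that these genes kept their level. The 14 members that were not tested had no probe above background on all 6 arrays at either time. They were HDAC3, HDAC10, KDM2B, BRD3, CHD5, CHD7, SMARCC1, SMARCD3, DNMT3L, KAT2B, PRMT2, PRMT8, SETD1B and SETD7. CHD5, a remodeller of the nervous system, exceeded the background limit on 0 of 6 arrays before maturation and on 0 of 6 after it. CHD7 exceeded it on 2 arrays at 0 h and on 4 at 6 h, with a ratio of 0.36 that was not tested.

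Several genes had more than 1 probe, which gave a check on single values. For 16 member genes more than 1 probe was tested, and for 11 of them the probes lay on 1 side of 0. No gene had probes called in opposite directions. Counted as probes, 90 of 130 were tested, of which 14 were called higher and 11 lower, beside 33.4% of all tested probes called in either direction. The probes of PRMT10, an arginine methyltransferase named after its values were seen, gave 0.21, -0.21 and -0.17, and none was called.

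**Figure D5:**
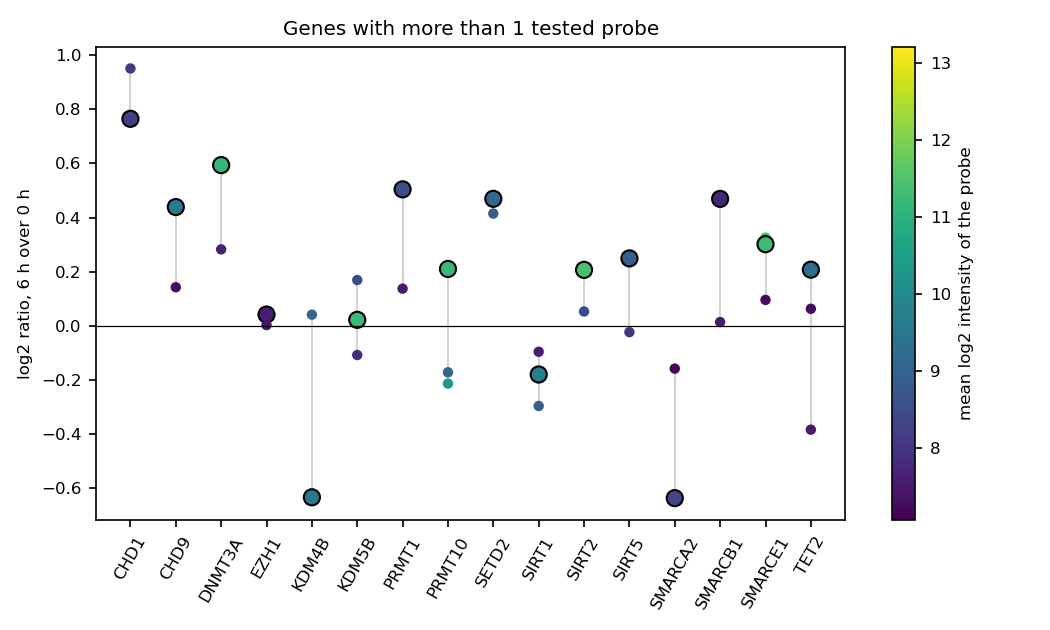
The log2 ratio of 6 h over 0 h (vertical axis) of each tested probe of the 16 members that have more than 1 (horizontal axis), coloured by the probe's mean log2 intensity. Both CHD1 probes are above 0.7, while those of KDM4B lie at -0.63 and 0.041 and those of TET2 range from -0.38 to 0.21.

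Current RefSeq names add genes that the platform lists under older symbols. By current name the count would be 13 higher and 14 lower, because KAT7, KMT2E and KMT5B were called lower. KMT5B, which adds further methyl groups to the H4K20 mark begun by SETD8, had ratios of -0.55, -1.24 and -1.18 and a mean of -0.99 (SD 0.38, limma adjusted p = 0.0095, n = 3). These values are from the brightest of 3 tested KMT5B probes, and the others gave -0.42 and -0.090. KAT7, an acetyltransferase of histones H3 and H4, was at -0.54 (limma adjusted p = 0.018, n = 3) and KMT2E, an inactive relative of the H3K4 methyltransferases, at -0.49 (limma adjusted p = 0.038, n = 3). KAT8, KDM4A and KDM8 were not called. These genes outside the platform rule are named after their values were seen.

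Partners and relatives of the members were taken from 10 lists of other chromatin genes. Of 262 listed genes, 217 were on the array and 175 were tested, of which 27 were called higher and 27 lower, or 30.9% beside 35.6% of all tested genes. Their median log2 ratio was -0.068.

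Among partners of the acetyl writers, 1 of 23 tested was called higher and 3 lower. The called genes that led this list were ING2, a reader subunit of the SIN3 deacetylase complex, at -1.50 (SD 0.16), SUPT3H, a SAGA subunit, at -1.29 (SD 0.29), and EPC2, a subunit of the KAT5 complex, at -0.86 (SD 0.072), with n = 3 each. The methyl writers outside the rule had 5 higher and 4 lower of 31. METTL13, which methylates the elongation factor eEF1A, was at 1.25. SMYD2 was at 1.17 and SMYD3 at -1.16, which are lysine methyltransferases with largely non-histone substrates. Of 6 tested demethylases outside the rule, JMJD1C was called higher at 1.33 and PHF2, which acts on H3K9, at 0.43.

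Corepressor genes had 2 higher and 2 lower of 10 tested. SAP30 and SUDS3, subunits of the SIN3 complex, fell by 1.42 and 0.77 on the log2 scale, and TBL1XR1 of the NCOR complex rose by 0.47. Polycomb repressive complex 1 had 3 higher and 2 lower of 12. PHC2 was at 1.30, RYBP at -1.09 and CBX8 at -0.43. Of 22 readers outside the rule, 4 were called higher and 4 lower, led by L3MBTL3 at 0.90, ZMYND8 at -0.90 and CBX5, or HP1 alpha, at -0.67.

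Remodeller genes outside the rule had 1 higher and 4 lower of 32, led by YEATS4 at -1.67, ARID2, a subunit of the PBAF complex, at -0.74, and RUVBL1, an ATPase of the INO80 and KAT5 complexes, at 0.66. Histone chaperones had 4 higher and 3 lower of 20. NAP1L5 was at -1.48, ANP32A at -1.27 and DAXX, which deposits histone H3.3, at 1.26, and a second ANP32A probe gave -0.015. Among partners of DNA demethylation 2 were higher and 3 lower of 7, and the stress-induced GADD45B, GADD45G and GADD45A were at -2.22, -2.16 and 1.17. Genes of methyl and acetyl donor supply had 3 higher and 2 lower of 12. ACLY, which makes acetyl-CoA from citrate, rose by 1.37 on the log2 scale. ACSS1, a mitochondrial acetyl-CoA synthetase, fell by 1.24. MAT1A, which makes S-adenosylmethionine, was called lower at -1.27 (ratios -0.50, -1.75 and -1.56), but it was above background on only 2 of 6 arrays at 6 h, so the size of its ratio is uncertain.

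Median spot intensity was 207 to 262 in Cy3 and 168 to 210 in Cy5, and negative control spots averaged 158 to 203 and 123 to 176. The share of probes over the background limit differed between arrays, from 51.3% to 84.3% for 0 h RNA and from 41.3% to 79.9% for 6 h RNA, and both ends of the 6 h range came from replicate 1, hybridised in Cy5 and in Cy3. Over tested genes, replicates correlated at r = 0.75 to 0.87 and the arrays of a dye swap at r = 0.83 to 0.90, as descriptions across genes that are not independent. No tested member had a saturated spot or a spot marked as ignored. For 22 of the 24 called members the ratio kept 1 sign over the 6 arrays; HAT1 and CHD9 did not.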

How the data were processed

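The authors deposited each array's scanner intensities (linear, not background corrected, per the file headers) and 2 identical tables of normalized log2 ratios, with no stated method, which correlated at r = 0.995 to 0.999 with the ratios computed here. Per the labels' protocols, RNA was amplified in rounds with T7 polymerase and labelled chemically. Here spot means were corrected for the median local background with normexp (offset 50, fitted on spots not marked as ignored) and normalized by loess within arrays in limma 3.58.1 (R 4.3.3). Dye swaps were averaged, giving n = 3. A probe was tested where its spot mean exceeded the mean plus 2 SD of 153 negative control spots on all 6 arrays at 0 h or at 6 h, and a gene is its brightest tested probe. The test (lmFit, eBayes, two-sided, Benjamini-Hochberg) ran over 9217 genes, and the procedure was checked on simulated data. Levels are log2 intensities after loess and quantile scaling of mean intensity between arrays. No depth applies to arrays, and their number limits the precision.

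Platform symbols were updated through RefSeq synonyms (982 of 15229 updated, 133 kept unmatched). Of the 20831 probes above background, 8671 had no symbol. Members and lists were chosen with earlier results of these data known. Named were every called member, in each role up to 4 further members with the smallest p and up to 4 with the smallest ratio, and up to 3 called genes with the largest ratio in each other list. Other genes, marker genes included, were named after their values were seen. No sequence is shown, since no sequence table was used here.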

Additional observations from a re-analysis of the deposited data

Results flagged for a closer look

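Among 69 tested members, 2 had 1 of 6 arrays farther from the rest than Dixon's limit of 0.625 for the gap divided by the range, a limit that chance passes in about 1 group of 20. BRD8 had a log2 ratio of -0.049 on the first array of replicate 1, and -0.61 to -0.42 on the others, a gap of 0.67 of the range. SMARCD2 had -0.096 on the dye-swapped array of replicate 1 and 0.092 to 0.17 on the others, a gap of 0.71 of the range.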

How the results depend on the processing

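Over 18 alternatives of background correction, normalization, probe filter, probe rule, dye orientation, blocking and left-out replicates, 0 called members changed direction. SMARCA4, CHD4, CHD2, SETD8, KDM5C and SIRT3, 6 of the 24, kept their call in all of them, and 18 lost it in at least 1, 8 of these only without a replicate. CHD9 lost its call in 11 alternatives (adjusted p 0.014 to 0.84) and HAT1 in 9 (0.016 to 0.79). Of the 45 members not called, 8 were called in at least 1 alternative and 25 changed sign. Leaving out 1 replicate moved the number of called genes between 1351 and 3338, members higher between 5 and 15, members lower between 2 and 10, and the remodellers' median between 0.12 and 0.16, with the lowest counts without replicate 2. Each of these fits used 2 replicates and so had fewer degrees of freedom, and why their counts differed was not tested. Counting every tested probe gave 6956 calls, because more features were tested. In both deposited tables the remodellers' median was 0.13. On the arrays with 6 h RNA in Cy3 alone the medians were 0.23 for remodellers and 0.021 for readers, and with 6 h RNA in Cy5 alone -0.0094 for remodellers, -0.29 for readers and 0.35 for writers, and the cause was not tested. Each array compares both times of 1 replicate, so the ratios are paired. With the 6 arrays and the replicate as a random block, 3886 genes were called, with 13 members higher and 10 lower; CHD9 and HAT1 lost their call and SETD2 gained one. Signal near background kept 14 members out of the test.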
